A study of Mus musculus with 9 samples.

Results

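PML nuclear bodies are small spherical domains of the cell nucleus. Described here in B16 mouse melanoma cells are 7 genes linked to them, among them genes of their scaffold, residents and building material. The authors' annotation gives the term PML body to 6 of the 7, all but Sp110. The 7 genes were chosen by name: Pml, Sp100, Sp110, Daxx, Atrx, Sumo2 and Sumo3, which are 7 of the 21676 genes in the deposited tables. All 7 were among the 13807 genes with enough reads to be tested. Sp100 and Sp110 reached that minimum through the control libraries, since Sp110 passed it in 3 control libraries only and Sp100 in 3 control libraries and 1 library of the shAD4-1 group. The other 5 genes passed it in all 9 libraries.

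Total RNA was sequenced from B16 cells, a pigmented melanoma line, grown in serum-containing DMEM. The 3 groups were B16 cells with a control hairpin (spelled shCotrol in the labels), B16 cells with the hairpin shAD4-1 and B16 cells with the hairpin shAD4-2, with 3 replicates each. The design text calls the last 2 groups knockdown derivatives KD1 and KD2 and the replicates biological. The title of the series names ADGRL4, an adhesion G protein-coupled receptor, with tumor dormancy and angiogenesis. Adgrl4 was not analysed here. Each group is 1 derivative of the line, and whether a derivative is a clone or a pool is not given in the sources used here. No treatment with an interferon or another agent is named in the labels, and all libraries share the same medium.

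The PML protein is a RING-finger protein that assembles into the shell of the body once it carries SUMO, a small ubiquitin-like protein joined to lysines of its targets. Other residents, among them SP100 and DAXX, are held there by SUMO and by motifs that bind it. DAXX and its partner ATRX place the histone variant H3.3 into heterochromatin and telomeres. PML and SP100 are also known as genes that interferons raise, and the bodies are known for restricting DNA viruses and for roles in senescence and DNA repair. SP100 and SP110 belong to one family of chromatin readers whose genes lie next to each other, together with SP140.

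The start regions of the genes are shown first, because Sp100 and Sp110, the pair with the largest differences below, share a run of letters there. They were read from RefSeq windows (mouse, GRCm38.p6) that reach 250 bases upstream and 50 bases downstream of each annotated RNA start, and all 7 genes matched, with 13 windows in all. The build of the authors' alignment, GRCm39, is a different one, and no measured value rests on these coordinates. In the 2 lines that follow, the capitals mark the 18-base run that both genes share, the longest stretch that their first windows have in common when 1 letter may differ, written as ACTTTCNTTTTTCTTTTC. The Sp100 stretch lies at chr1:85649933-85649962 on the plus strand, upstream of the first annotated start. The Sp110 stretch lies at chr1:85598780-85598809 on the minus strand, just downstream of an annotated start.
Sp100: agaattACTTTCGTTTTTCTTTTCcccatc
Sp110: gagatcACTTTCATTTTTCTTTTCttgaag

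In Sp100 the run spanned bases -49 to -32 from the first annotated start and -75 to -58 from the second. In Sp110 it spanned bases 8 to 25 after the start of the first window, and the second Sp110 window did not hold it. Among 32851 windows of 27025 genes, 4 windows (0.0122%) held the run on either strand, and they belonged to 3 genes: Sp100, Sp110 and Gm7609, which the authors' table calls a predicted pseudogene. The run was defined after these sequences were seen, so its rarity is a description. It covers 2 overlapping matches of the interferon regulatory factor (IRF) core AANNGAAA, which 23.9% of all windows hold. The longer interferon response element core, 2 copies of GAAA with any 2 bases between them, in 3.44% of windows, and the STAT-binding GAS core TTCNNNGAA, in 8.3%, had no match in any window of the 7 genes. Both strands were searched for each of them.

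The windows of the other genes differed in base composition. The next lines give the 150 bases upstream of an annotated start of 2 genes that fell (Sp100, Pml) and 2 that rose (Sumo2, Sumo3) against control. Capitals mark the shared run in Sp100 and the GC box GGGCGG, on either strand, in the others. They lie at chr1:85649838-85649987 (plus strand), chr9:58249787-58249936 (minus), chr11:115536231-115536380 (minus) and chr10:77605947-77606096 (plus).
Sp100: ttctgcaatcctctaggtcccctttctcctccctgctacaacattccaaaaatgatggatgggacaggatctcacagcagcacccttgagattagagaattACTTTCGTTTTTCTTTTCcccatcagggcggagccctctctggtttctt
Pml: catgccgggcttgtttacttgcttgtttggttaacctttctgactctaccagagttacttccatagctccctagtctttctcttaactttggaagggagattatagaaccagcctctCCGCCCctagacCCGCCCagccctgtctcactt
Sumo2: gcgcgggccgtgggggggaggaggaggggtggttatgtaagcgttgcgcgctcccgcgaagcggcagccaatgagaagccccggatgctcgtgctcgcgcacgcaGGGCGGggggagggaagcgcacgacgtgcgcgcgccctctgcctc
Sumo3: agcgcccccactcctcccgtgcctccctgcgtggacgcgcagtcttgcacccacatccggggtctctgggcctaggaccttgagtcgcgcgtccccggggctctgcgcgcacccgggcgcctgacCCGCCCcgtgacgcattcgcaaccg

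The Sumo2 window held 42 CpG dinucleotides, the 3 Sumo3 windows 31, 36 and 2 and the Daxx windows 32 or 33, against a median of 7 over all windows. The Pml and Atrx windows held 11 each, the Sp110 windows 5 and 3, and the Sp100 windows 2 each. A GC box, present in 35.7% of all windows, was found in at least 1 window of every gene except Atrx, and an IRF core in windows of Pml, Sp100, Sp110 and, for 1 of its 3 windows, Sumo3.

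**Figure D1:**
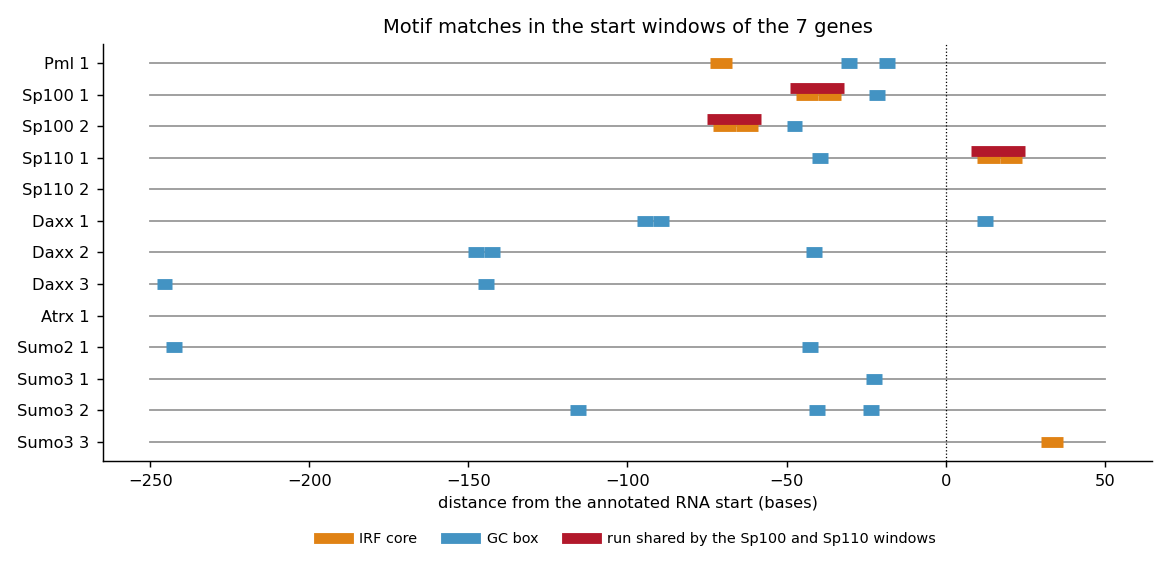
Position of motif matches in the 13 RefSeq start windows of the 7 genes, with the distance from the annotated RNA start in bases on the x axis and 1 line per window, numbered within the gene. The red run is seen in both Sp100 windows and in the first Sp110 window, over pairs of orange IRF core matches, and the blue GC boxes are seen in windows of all genes but Atrx.

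Depth was similar across groups, with 31.5 to 36.4 M reads in genes per control library, 35.8 to 36.9 M with shAD4-1 and 31.3 to 36.4 M with shAD4-2. Melanocyte genes were high in every library: all 8 of the melanocyte markers, such as Pmel and Tyr, were above 1 FPKM in each group. Their sum was 4698 to 5422 FPKM in control, 4067 to 4167 with shAD4-1 and 4450 to 4862 with shAD4-2. By the edgeR test given below, 7 of the 8 were lower with shAD4-1, where 32.3% of all tested genes were. With shAD4-2, 2 were higher and 2 lower, beside 34.2% and 34.8% of all tested genes. Markers of other cell types were low, and some of them moved with the groups. The summed leukocyte markers went from 0.0962 to 0.283 FPKM in control libraries to 2.13 to 3.08 with shAD4-1 and 3.88 to 4.22 with shAD4-2, 4 of 7 of them being in the table, with Ptprc at no more than 1 read in any library and Lyz2 averaging 0.177, 2.69 and 4.01 FPKM. The summed fibroblast markers, 4 of 5 being in the table, went from 0.783 to 1.01 FPKM to 1.60 to 1.90 and 1.97 to 2.26. Col1a1 and Col1a2 were higher in both comparisons. Pdgfra was not called (edgeR adjusted p = 0.334 and 0.843), and Col3a1 had no more than 4 reads in any library. The endothelial sum (3 of 4 markers in the table) stayed at or below 0.0868 FPKM. The keratinocyte sum did too, but it rests on Krt10 alone, 1 of 4 markers. The mitochondrial share of reads was 2.45% ± 0.156 (SD, n = 3) in control, 3.74% ± 0.104 with shAD4-1 and 3.72% ± 0.150 with shAD4-2. Control replicate 1 stood apart from the other 2 control libraries, with a chi-square of counts per degree of freedom of 12.4 and 18.1 against them, where those 2 differed by 3.44. Fits without control replicate 1 are among those given below. The part of the other differences in the results was not tested.

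With shAD4-1, 2 of the 7 genes were higher than control (Sumo2, Sumo3), 4 were lower (Pml, Sp100, Sp110, Daxx) and Atrx did not pass the test. With shAD4-2, the same 2 were higher and 5 were lower. The test was edgeR's quasi-likelihood test over all 13807 genes, with Benjamini-Hochberg adjustment and a threshold of 0.05. Calls were common in this experiment: 65.0% of all tested genes were called with shAD4-1 (32.7% higher, 32.3% lower) and 69.0% with shAD4-2 (34.2% higher, 34.8% lower), so that 6 or 7 calls among 7 genes are not far from the background. The sizes spread more widely than the calls. The values ran from -6.06 to 0.89 with shAD4-1 and from -7.10 to 0.98 with shAD4-2. The median log2 fold change of the 7 genes was -0.67 and -0.75, against -0.01 over all genes in each comparison. That median is the value of Daxx alone, with genes on both sides of 0, so it does not describe a shift of the 7 genes as a set. The genes were also chosen with earlier results of these data known. Both comparisons use the same control libraries, so they are given side by side and not counted as independent.

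**Figure D2:**
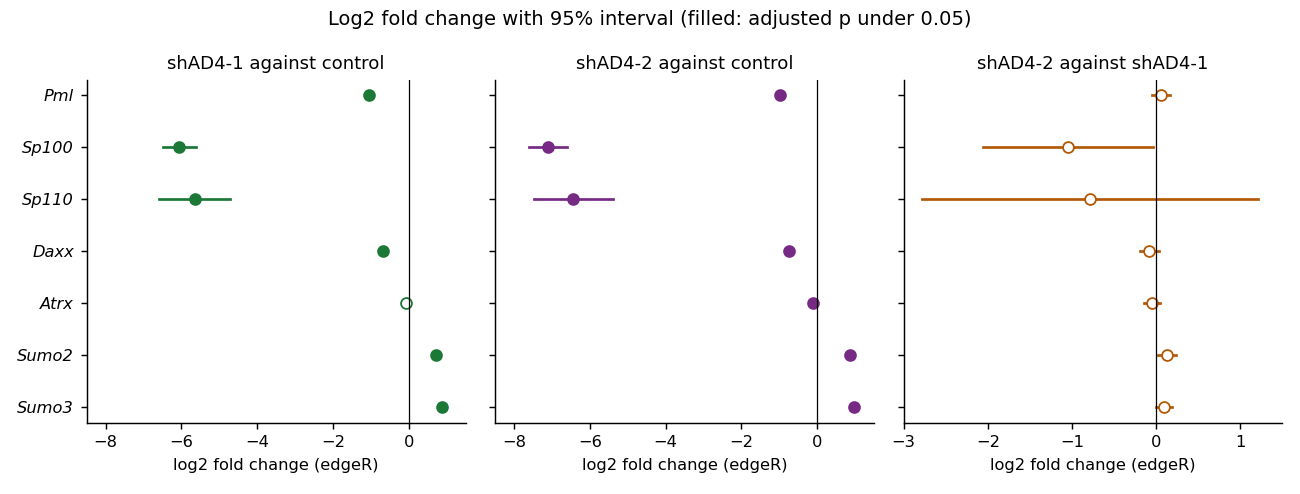
Log2 fold change of each gene (x axis, edgeR) with its 95% interval in 3 comparisons, filled where the adjusted p was under 0.05. Sp100 and Sp110 lie at -5.65 or below against control, Sumo2 and Sumo3 at 0.73 or above, and none of the 7 is filled between the hairpins.

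Levels per gene length set the genes in a clear order. FPKM, the read count scaled to gene length and library depth, allows levels to be compared between genes. In control cells the order was Sumo2, Atrx, Sumo3, Daxx, Pml, Sp100 and Sp110, from 71.0 FPKM ± 5.85 (SD, n = 3) down to 0.898 ± 0.0967. With either hairpin Sumo3 stood above Atrx and the rest of the order was the same as in control. Between neighbours in the order, the ranges of the 3 libraries did not overlap in any group.

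**Figure D3:**
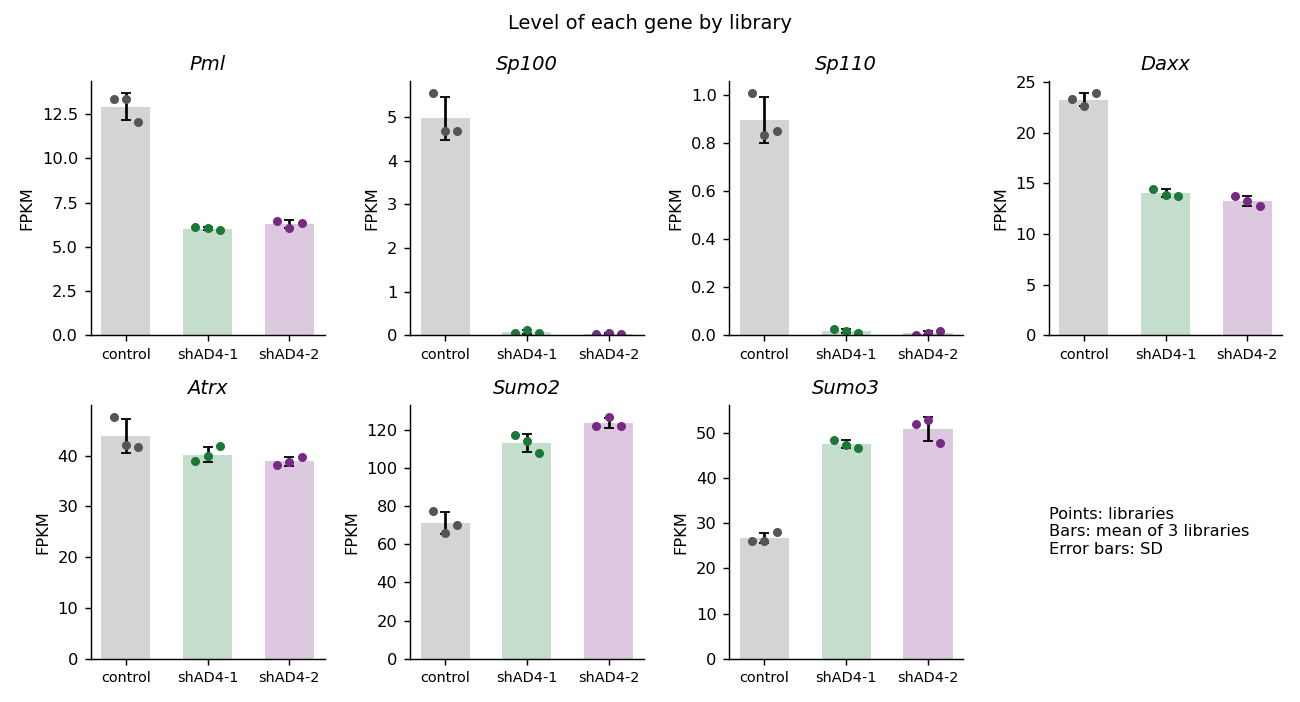
FPKM of each gene in the 9 libraries (points), with the mean (bar) and SD (error bar) of 3 libraries per group and 1 panel per gene, each with its own y axis from 0. Pml and Daxx libraries of both hairpin groups lie below all control libraries, Sumo2 and Sumo3 libraries lie above them, Sp100 and Sp110 are close to 0 with either hairpin, and Atrx ranges overlap between control and shAD4-1.

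Pml, the scaffold of the body, fell to about the same level with both hairpins. Control libraries held 13.37, 13.36 and 12.04 FPKM. The shAD4-1 libraries held 6.10, 6.05 and 5.94 FPKM, and the shAD4-2 libraries 6.46, 6.04 and 6.37. Every hairpin library lay below every control library. Groups that did not overlap, in either direction, were found for 68.0% of all tested genes with shAD4-1 and 70.6% with shAD4-2. These shares are the background for the same statement on each gene below. The level was 2.06-fold lower with shAD4-1 (log2 fold change -1.04, SE 0.05, edgeR adjusted p = 1.73e-12) and 1.98-fold lower with shAD4-2 (-0.98, SE 0.05, adjusted p = 3.35e-12). In bulk RNA, fewer cells expressing a gene and less RNA per cell cannot be told apart, here and for every gene below.

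Sp100, a SUMO-bound resident of the body and a chromatin reader, was close to absent with either hairpin. Control libraries held 5.55, 4.67 and 4.69 FPKM from 880, 813 and 859 reads. The shAD4-1 libraries held 7, 23 and 9 reads, or 0.0379, 0.128 and 0.0485 FPKM, and the shAD4-2 libraries 6, 7 and 4 reads, or 0.0327, 0.0444 and 0.0253 FPKM. The groups were far apart, and the second shAD4-1 library held more reads than the other 5 hairpin libraries. The fitted log2 fold change was -6.06 (SE 0.21, edgeR adjusted p = 2.33e-14) with shAD4-1 and -7.10 (SE 0.24, adjusted p = 1.52e-14) with shAD4-2. Without the second shAD4-1 library the first value was -6.76. Summed over 3 libraries and scaled to depth, the reads with shAD4-1 were 0.0149 of control (exact Clopper-Pearson 95% interval 0.0106 to 0.0204) and with shAD4-2 0.00715 of control (0.00416 to 0.0115). These intervals cover counting error only. Ordered from the most negative fold change, Sp100 was at place 19 of 13807 with shAD4-1 and at place 13 with shAD4-2. Genes that reach the minimum for testing through the control libraries, as Sp100 did, lie toward that end by selection. The places are therefore a description only.

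Sp110, a family member known in mice for its locus's role in resistance to intracellular bacteria, was low in control and near 0 with the hairpins. Control libraries held 108, 98 and 105 reads, or 1.01, 0.835 and 0.850 FPKM. The shAD4-1 libraries held 3, 2 and 1 reads and the shAD4-2 libraries 0, 1 and 2. A count of 0 in the first shAD4-2 library allows up to 0.0242 FPKM, the value of 3 reads there. No hairpin library came near the control range. Scaled to depth, the ratio to control was 0.0188 (exact Clopper-Pearson 95% interval 0.00685 to 0.0414) with shAD4-1 and 0.0104 (0.00212 to 0.0306) with shAD4-2. edgeR gave -5.65 (SE 0.44, adjusted p = 2.57e-09) and -6.44 (SE 0.50, adjusted p = 1.72e-09). With so few reads the fitted size moved with single libraries, to -7.31 without the third shAD4-2 library and to -5.83 without the first, while the direction and the call did not change.

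Sp100 and Sp110 were also low relative to Pml in the same libraries. In control cells the Sp100 level was 0.385 of the Pml level, against 0.0118 with shAD4-1 and 0.00546 with shAD4-2. On the log2(FPKM + 0.1) scale the Sp100 to Pml ratio differed from control by -3.83 with shAD4-1 and by -4.21 with shAD4-2. The Sp110 to Pml ratio differed by -2.02 and -2.16 on that scale. None of these ratios overlapped between control and hairpin libraries, and each had p = 0.1 in a two-sided exact permutation test, the smallest p that 3 against 3 libraries allow (adjusted p = 0.171 over 12 such tests). The pseudocount understates the change of the low genes: with 1 FPKM in place of 0.1 the Sp110 to Pml differences were 0.08 and 0.02, of the opposite sign, because nearly all of the Sp110 level lies below 1 FPKM.

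Genes near Sp100 on the chromosome were compared, since counting may divide reads between near-identical relatives. In RefSeq order Sp110, Sp140 and Sp100 follow each other. Sp140, the chromatin reader between them, fell from 0.470 FPKM ± 0.185 (SD, n = 3) to 0.0412 ± 0.0268 and 0.0565 ± 0.0179 (log2 fold change -3.41 and -2.97, edgeR adjusted p = 5.32e-06 and 1.61e-05). The 1 start window of Sp140 held neither the run shared by Sp100 and Sp110 nor an IRF core. Whether the run has a part in any of these falls was not tested. Gm7592, a predicted gene on the Sp110 side, fell from 84 control reads to 8 and 8 (-3.37 and -3.25). Gm7609, the third gene with the shared run, had 48 control reads and 0 with either hairpin, at least 16.4-fold and 14.9-fold lower at a floor of 3 reads over the group, and was not tested. The tested genes past Sp100 lay between -0.24 and 0.43: A630001G21Rik stood at -0.07 and 0.17 (adjusted p = 0.533 and 0.105), Cab39, a kinase scaffold, at 0.26 and 0.43, and Itm2c at -0.24 and -0.19. Reads of Sp100, Sp110 and these copies are uncertain to the extent that near-identical stretches share them. Of the relatives elsewhere in the genome, Aire, the autoimmune regulator, fell from 3.72 FPKM ± 0.269 to 1.15 ± 0.226 and 0.776 ± 0.159 (-1.63 and -2.20). Sp140 and Aire were the 2 tested of the 4 listed SP100 relatives (Sp140, Sp140l1, Sp140l2 and Aire). Both were lower in each comparison, as were 32.3% and 34.8% of all tested genes. Like Sp100 and Sp110, Sp140 and Gm7592 reached the minimum for testing through the control libraries. Sp140 had up to 81 reads in a control library and up to 9 in a hairpin library, and Gm7592 up to 30 in control and up to 5 and 6 with the hairpins.

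Daxx, the histone chaperone that brings H3.3 to the bodies, fell, and its partner Atrx, the chromatin remodeler, hardly moved. Daxx stood at 23.3, 22.6 and 23.9 FPKM in control. It stood at 14.5, 13.8 and 13.7 with shAD4-1 and at 13.8, 13.3 and 12.7 with shAD4-2, all below control. Such a lack of overlap, in either direction, was found for 68.0% and 70.6% of all tested genes. The level was 1.60-fold lower (log2 fold change -0.67, SE 0.05, edgeR adjusted p = 1.42e-09) and 1.69-fold lower (-0.75, SE 0.05, adjusted p = 2.81e-10).

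Atrx stood at 47.6, 42.0 and 41.7 FPKM in control, with the first library above the other 2. It stood at 38.9, 39.8 and 41.8 with shAD4-1, a range that overlapped control, and at 38.1, 38.8 and 39.8 with shAD4-2, below it. The log2 fold change was -0.06 with shAD4-1 (95% interval -0.16 to 0.03, edgeR adjusted p = 0.232). With shAD4-2 it was -0.11 (SE 0.05, adjusted p = 0.0343), a call that rested on control replicate 1. Without that library the value was -0.04 (adjusted p = 0.256), and the shAD4-1 value was 0.0034 (adjusted p = 0.936). Leaving out shAD4-1 replicate 2 or any 1 of the 3 shAD4-2 libraries also ended the call, with adjusted p of 0.0529 to 0.127.

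The Daxx to Atrx level ratio was 0.533 ± 0.0413 (SD, n = 3) in control, 0.349 ± 0.0219 with shAD4-1 and 0.341 ± 0.0210 with shAD4-2. The ratio in every hairpin library was below that in every control library. On the log2(FPKM + 0.1) scale the differences were -0.61 and -0.64, each with a two-sided exact permutation p = 0.1 (adjusted 0.171).

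Among 21 other genes of H3.3 deposition and heterochromatin, 7 were higher and 10 lower with shAD4-1, with a median log2 fold change of -0.08, and 10 were higher and 5 lower with shAD4-2, with a median of 0.03. Over all tested genes 32.7% were higher and 32.3% lower with shAD4-1, and 34.2% and 34.8% with shAD4-2. These shares are the background for this list and the lists below. With shAD4-1 the list was called more often than that, with 4 of the 21 genes not called. With shAD4-2, 6 were not called. H3f3a, one of the genes that encode H3.3 itself, fell from 346 FPKM ± 12.2 (SD, n = 3) to 207 ± 2.17 and 250 ± 7.90 (log2 fold change -0.68 and -0.41). H3f3b, another such gene with a higher level, changed less, from 551 FPKM ± 17.9 to 475 ± 11.5 and 500 ± 39.8. Its log2 fold changes were -0.16 and -0.08 (edgeR adjusted p = 0.00772 and 0.131). Ubn1, a subunit of the HIRA complex that places H3.3 at active genes, fell from 14.1 FPKM ± 0.340 to 6.93 ± 0.259 and 9.37 ± 0.224 (-0.97 and -0.53), and the hairpins differed (0.43, edgeR adjusted p = 2.21e-06). Hira, the core of that complex, fell as well (-0.55 and -0.47). Atf7ip, a cofactor of the H3K9 methyltransferase SETDB1, fell to 0.694 and 0.573 of control (-0.53 and -0.80). Trim28, the corepressor that recruits SETDB1, rose from 48.2 FPKM ± 1.61 to 65.3 ± 1.03 and 75.8 ± 4.34 (0.50 and 0.71). Other genes of H3.3 deposition rose: Ubn2, a relative of Ubn1, by 0.29 and 0.31, Cabin1, another subunit of the HIRA complex, by 0.16 and 0.28, and the histone chaperone Asf1a by 0.21 and 0.25. The list moved in both directions.

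Sumo2 and Sumo3, which encode the SUMO proteins that form chains, rose with both hairpins. Sumo2 stood at 77.3, 65.7 and 70.0 FPKM in control. It stood at 117, 114 and 108 with shAD4-1 and at 122, 127 and 122 with shAD4-2, above every control library. For 68.0% and 70.6% of all tested genes the groups likewise did not overlap, in either direction. The level was 1.66-fold higher (log2 fold change 0.73, SE 0.05, edgeR adjusted p = 5.99e-10) and 1.81-fold higher (0.86, SE 0.05, adjusted p = 5.35e-11).

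Sumo3 stood at 26.0, 26.1 and 28.0 FPKM in control, at 48.5, 47.4 and 46.6 with shAD4-1 and at 52.1, 52.7 and 47.8 with shAD4-2. The hairpin libraries again lay above all control libraries. The level was 1.85-fold higher (0.89, SE 0.05, edgeR adjusted p = 7.69e-12) and 1.98-fold higher (0.98, SE 0.05, adjusted p = 1.62e-12). The coding sequences of the SUMO genes resemble each other and processed copies exist in genomes, so their reads are uncertain to the extent that counting split or dropped shared ones.

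The Sumo3 to Sumo2 ratio was 0.378 ± 0.0360 (SD, n = 3) in control, 0.421 ± 0.00995 with shAD4-1 and 0.411 ± 0.0183 with shAD4-2. On the log2(FPKM + 0.1) scale the difference was 0.16 with shAD4-1, with no overlap (two-sided exact permutation p = 0.1, adjusted 0.171). With shAD4-2 it was 0.12, with overlapping libraries (exact permutation p = 0.3, adjusted 0.36). With 3 against 3 libraries this test cannot pass the threshold, so it does not settle whether the ratio of the 2 genes changed.

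Changes among the enzymes of the SUMO pathway were small. Of 23 other pathway genes, 5 were higher, 2 lower and 16 not called with shAD4-1, with a median of 0.00. With shAD4-2, 11 were higher, 3 lower and 9 not called, with a median of 0.10. Over all tested genes 65.0% were called with shAD4-1, more than in this list, and 69.0% with shAD4-2. None of the 23 pathway genes changed by a factor of 2 or more in either comparison. The subunits of the activating enzyme were at -0.03 and 0.10 for Sae1 (edgeR adjusted p = 0.457 and 0.0351) and 0.02 and 0.14 for Uba2 (0.608 and 0.00402). Of the ligases and proteases, Zmiz1 rose by 0.62 in both comparisons, Ranbp2, the SUMO ligase of the nuclear pore, by 0.42 and 0.58, and Senp7, a protease that trims SUMO chains, by 0.38 and 0.35.

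Genes of proteins that visit or regulate the bodies were called higher more often than lower. Of 23 listed partners, 22 were tested. With shAD4-1, 12 were higher, 2 lower and 8 not called (median 0.22). With shAD4-2, 14 were higher, 2 lower and 6 not called (median 0.31), beside a median of -0.01 over all genes. The share called in either direction was near that over all tested genes (65.0% and 69.0%, of which 32.7% and 34.2% higher). Mdm2, the ubiquitin ligase of p53, rose from 21.2 FPKM ± 0.556 (SD, n = 3) to 41.6 ± 0.645 and 54.6 ± 0.122 (log2 fold change 1.03 and 1.42). Tdg, a DNA glycosylase that is modified by SUMO, rose from 17.2 FPKM ± 0.446 to 28.8 ± 1.47 and 32.7 ± 0.274 (0.81 and 0.99). Morc3, an ATPase that brings p53 to the bodies, rose from 11.7 FPKM ± 0.658 to 18.2 ± 0.713 and 18.3 ± 0.291 (0.69 and 0.70). Lower in both comparisons were Ubn1, given above, and Trp53, which encodes p53 (-0.25 and -0.13). Ubn1, Senp6, Rnf4 and Rnf111 stand in 2 of the lists.

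Pml, Sp100 and Sp110 fell beside factors of interferon signalling. Of 13 such genes, 9 were lower and 2 higher with shAD4-1 (median -1.34) and 10 were lower and 1 higher with shAD4-2 (median -1.19). At the receptor, Ifnar2 was lower (-0.63 and -0.71) and Ifnar1 was higher (0.24 and 0.31). The transcription factors Stat2 (-2.13 and -2.25) and Irf9 (-1.45 and -1.85) fell. Among the pathway's own products, Usp18, a brake on the receptor, fell from 200 FPKM ± 9.45 (SD, n = 3) to 5.36 ± 0.428 and 3.17 ± 0.336 (-5.16 and -5.91), and Isg15, a ubiquitin-like modifier, from 309 FPKM ± 37.4 to 39.0 ± 2.55 and 22.2 ± 2.23 (-2.92 and -3.74). The fitted value of Sp100 was more negative than that of any of the 13 factors in each comparison, a difference that was not tested. Whether the fall of Pml, Sp100 and Sp110 depends on these factors was not tested.

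**Figure D4:**
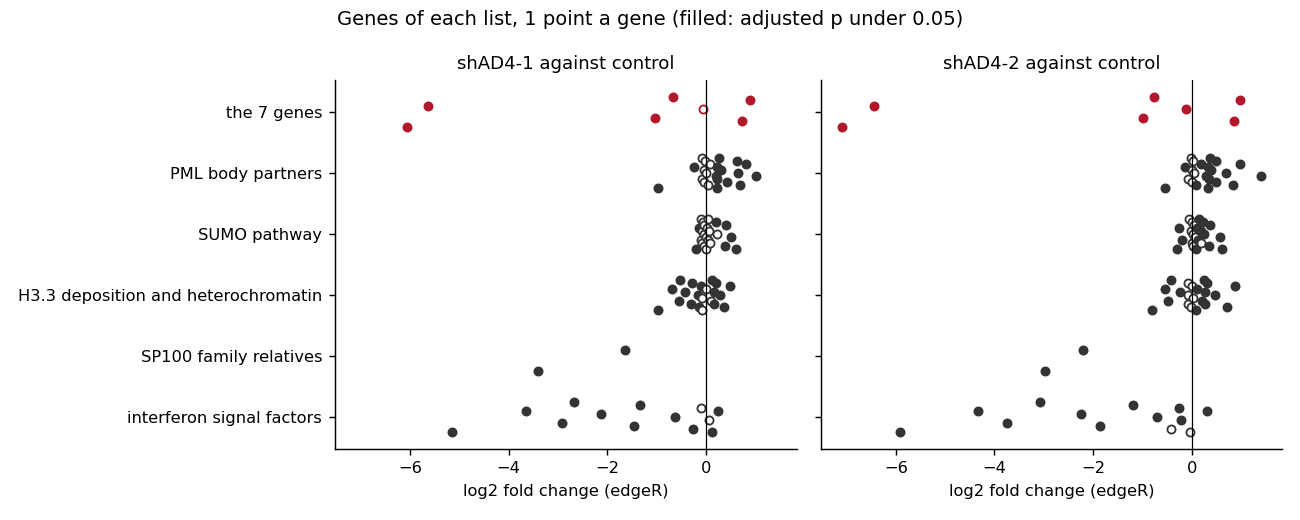
Log2 fold change (x axis, edgeR) of each tested gene in the 7 genes and 5 lists, 1 point a gene, filled where the adjusted p was under 0.05, for shAD4-1 (left) and shAD4-2 (right) against control. The interferon factors and SP100 relatives lie mostly left of 0 and the PML body partners mostly right of it, with the 7 genes on both sides.

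Between the hairpins, none of the 7 genes differed by edgeR's adjusted p, where 27.4% of all tested genes did (13.4% higher with shAD4-2, 14% lower). At an unadjusted p under 0.05 there were 3: Sp100, Sumo2 and Sumo3. DESeq2 called 1 and limma 0. The log2 difference, shAD4-2 minus shAD4-1, was 0.06 for Pml (95% interval -0.05 to 0.16), -0.08 for Daxx (-0.19 to 0.03) and -0.05 for Atrx (-0.15 to 0.05). It was -1.04 for Sp100 (-2.06 to -0.03, adjusted p = 0.118) and -0.79 for Sp110 (-2.78 to 1.21, adjusted p = 0.585), intervals that leave room for a large difference between hairpins. Without shAD4-1 replicate 2 the Sp100 difference was -0.34 (adjusted p = 0.678). Sumo2 was 1.09-fold higher with shAD4-2 (0.13, 0.02 to 0.23, adjusted p = 0.0670), with no overlap between the 3 libraries of each hairpin, as in 44.5% of tested genes. Sumo3 differed by 0.10 (0.00 to 0.19, adjusted p = 0.121). Sumo2 did pass the threshold without control replicate 1 (adjusted p = 0.00789) or without control replicate 2 (0.0488), and Sumo3 without control replicate 1 (0.0416) or without shAD4-2 replicate 3 (0.14, adjusted p = 0.0283).

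Genes whose pattern over the 9 libraries was most like that of each gene were sought among genes with at least 5 CPM in control. The measure was the root mean square difference of log2 CPM (prior count 2) after subtracting the control mean. For Sp100 the nearest were Trim30a (0.40), Iigp1 (0.53) and Gbp5 (0.58), and for Sp110 Oas1g (0.40), Oas1a (0.49) and Ifit3 (0.50). These 6 genes are known as interferon-induced. The prior count reduces the change of genes with few reads, Sp110 among them. By edgeR, the 3 nearest to Sp110 fell less than Sp110 itself (-5.65 and -6.44). Oas1g stood at -4.51 and -5.51, Oas1a at -4.13 and -5.27, and Ifit3 at -4.10 and -5.20. For Pml the nearest were Pdzrn3 (0.058), Nampt (0.059), an enzyme of NAD synthesis, and Tuba1a (0.064), a tubulin. For Daxx they were Nckap5l (0.042), Mpzl1 (0.047) and Stard3nl (0.048), and for Atrx, which changed little, Nars (0.033), Wdr26 (0.035) and Rock1 (0.036). For Sumo2 they were Blzf1 (0.041), Parp4 (0.048) and Mta3 (0.049), and for Sumo3 Cluh (0.027), Rnasek (0.037) and Nsmce4a (0.048), a subunit of the SMC5-SMC6 complex. The distance grows with the size of the change and with low counts, so it is read within a gene and not between genes.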

How the data were processed

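RNA from B16 cells, 9 libraries in all, was prepared for sequencing using a VAHTS Universal V6 kit (per the labels' protocols). The submitters' processing notes list fastp, HISAT2, HTSeq and GRCm39, without versions, and the strand setting is not given in the sources used here. The authors deposited whole-number read counts per gene and, as a second table, FPKM values, which equal the count divided by the column sum and by 1 fixed length per gene. Columns named Con, KD1 and KD2 were matched to the hairpins by the design text and their numbers, and 0 sample columns were left out.

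Counts were tested with edgeR 4.0.16 (R 4.3.3): filterByExpr, TMM factors, group as the only term over 9 libraries, glmQLFTest, Benjamini-Hochberg over 13807 genes. SEs were taken from each fold change and its F statistic. Within-library ratios used log2(FPKM + 0.1) and exact permutation tests. Replicates are biological per the design text; the p-values measure the spread between these samples.

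The 7 genes are always named. From each list the 4 genes with the smallest larger adjusted p against control are named, with any other gene a sentence counts, and for each of the 7 the 3 most alike genes. Some genes that this rule names are not reported here, though the counts of their lists include them. The members and lists were chosen with earlier results of these data known. Alternatives (other scaling, filters, DESeq2 1.42.0, limma 3.58.1 on FPKM, 2 groups only, replicate block, a 1.5-fold minimum, each library left out) are given at the end. The numbers do not pair the libraries: same-numbered libraries deviated with r of -0.124 to 0.00225 in 9 pairs. Of the steps above, only the edgeR fit was tested on simulated counts.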

Additional observations from a re-analysis of the deposited data

How the results depend on the processing

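In 20 alternatives per comparison with control, Pml, Sp100, Sumo2 and Sumo3 kept their direction and call, as did Sp110 in the 18 that tested it. Daxx lost its call only with shAD4-1 against a 1.5-fold minimum (adjusted p = 0.0812). That minimum left 2060, 2607 and 50 genes called (shAD4-1, shAD4-2, shAD4-2 against shAD4-1). The Atrx call with shAD4-2 was lost in 8, among them the fit of 2 groups only (adjusted p = 0.0697) and the replicate block (0.0530). The replicate block called 6, 6 and 0 of the 7 genes and changed no other call. With a library left out, Atrx with shAD4-1 ranged from -0.0918 to 0.0034, the latter without control replicate 1. Between hairpins the number of the 7 genes called was 1 with RLE scaling, 1 with DESeq2, 2 of 5 tested with 2 groups only, and 0 to 2 with a library left out. Genes called between hairpins ranged from 2785 to 4937 with a library left out. With a pseudocount of 1 FPKM the Sp110 to Pml differences were 0.0844 (shAD4-1) and 0.0233 (shAD4-2). With a library left out, differences between hairpins ranged from -0.0751 to 0.0150 for Daxx to Atrx and from -0.0607 to 0.00198 for Sumo3 to Sumo2. The fitted sizes of Sp100 and Sp110 depend on the scale: limma on log2(FPKM + 1) gave -2.48 and -2.53 for Sp100 and -0.90 and -0.91 for Sp110. Depth limits Sp110 most, with 6 and 3 reads over the 3 libraries of the hairpin groups.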

Other observations

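The authors' annotation gives the term PML body to 74 genes of the table, among them 6 of the 7 genes described here, all but Sp110. This wider list was chosen after the data were seen. Of the other 68 genes, 63 were tested: 31 were higher and 14 lower with shAD4-1 (median log2 fold change 0.14), and 31 were higher and 12 lower with shAD4-2 (median 0.12). Over all tested genes 65.0% were called with shAD4-1 and 69.0% with shAD4-2, with a median of -0.01 in each, so the share of this list that was called is near the background. The genes named here were chosen after their values were seen. Elf4, an ETS transcription factor, rose from 0.430 FPKM ± 0.121 (SD, n = 3) to 4.20 ± 0.0682 and 3.98 ± 0.0745 (log2 fold change 3.36 and 3.28). Sqstm1, which encodes the autophagy receptor p62, rose from 272 FPKM ± 12.5 to 529 ± 11.9 and 542 ± 7.06 (1.02 and 1.05). Rpa2, a subunit of the single-stranded DNA binding complex RPA, rose from 6.33 FPKM ± 0.562 to 12.2 ± 1.36 and 17.4 ± 0.349 (1.00 and 1.52). Dapk3, a death-associated kinase, fell from 19.6 FPKM ± 2.53 to 7.85 ± 0.415 and 8.09 ± 0.434 (-1.27 and -1.22).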
